A study of Homo sapiens with 4 samples.

Results

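KIT, FLT3, CSF1R, EPOR, CSF3R, IL3RA, CSF2RA, CSF2RB and IL6R code for receptor chains through which blood cells read growth factors. They were found by gene name among the 58735 genes of an RNA-seq table, and 9 of 9 had a row. The table holds 4 libraries of cells labelled NB4, a line derived from a case of acute promyelocytic leukemia. The groups compared were 2 control libraries of cells not given the compound and 2 libraries of cells exposed for 24 h to GNE-987 at 25 nM. This compound joins a ligand of its target proteins to a ligand of the VHL ubiquitin ligase, and so leads to the degradation of these targets. The comparison asks how each receptor gene was expressed in the absence and presence of the compound. No label says that the libraries of a group came from separate cultures, so the P values measure only the spread between these libraries, which may be technical.

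KIT, FLT3 and CSF1R are receptor tyrosine kinases, which carry their own kinase and bind stem cell factor, FLT3 ligand and macrophage colony-stimulating factor. The other receptors have no kinase of their own and signal through JAK kinases and STAT proteins bound inside the cell. IL3RA and CSF2RA each give specificity for one ligand, interleukin 3 or GM-CSF, and need the shared chain CSF2RB to signal, while IL6R pairs in the same way with IL6ST. EPOR is the receptor that erythroid precursors need to survive, and CSF3R is the receptor for G-CSF on cells of the neutrophil line.

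The label was checked against marker genes. In the control libraries the promyelocyte granule gene MPO was at 0.0246 and 0 FPKM (fragments scaled by gene length and library). ELANE and CTSG were listed at 0 there, and CEBPA and CEBPE reached at most 0.132 and 0.116 FPKM. Other markers of the same list were present, with SPI1 at 7.52 and 5.68 FPKM, AZU1 at 2.07 and 2.1 and LYZ at 2.02 and 1.59. CD33 was at 0.836 and 0.915 FPKM and PRTN3 at 0.341 and 0.71 FPKM. The erythroid transcription factor gene GATA1 was at 123.8 and 121.8 FPKM in the same libraries. The 13 erythroid markers summed to between 701.2 and 712.2 FPKM in control and between 934.6 and 1056 FPKM in GNE-987, with AHSP at 0 in both control libraries. The 10 promyelocyte markers summed to between 11.2 and 13 FPKM in control and between 37.3 and 39 FPKM in GNE-987. The 6 megakaryocyte markers summed to at most 1.47 FPKM in control and at most 9.96 FPKM in GNE-987, with PF4, PPBP and GP9 at 0 in both control libraries, and the 5 lymphoid markers to at most 17.2 and at most 44.2 FPKM. By these sums the controls go against the promyelocytic label, although some promyelocyte markers were present, and the cells are called by that label only. Whole reads worked back from the FPKM steps gave 17320078 to 17530331 reads on genes per control library and 11301568 to 11768534 per GNE-987 library. The deposited values were scaled to 1.28 and 1.31 times those reads in control but to 0.74 and 0.75 times in GNE-987, so that scaling to the reads themselves would move every log2 fold change by -0.798 before a pseudocount. The reads of KIT, EPOR, CSF3R and IL6R rest on a searched exon length, since the GENCODE length did not give whole reads for these genes, and are less certain than those of the other receptors.

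Among the 9 receptors, EPOR was the highest in control and IL3RA the highest after GNE-987. IL3RA rose from 0.325 to 69 FPKM and IL6R from 0.0481 to 2.15 FPKM on average, and EPOR fell from 7.52 to 0.912 FPKM. In control the order was EPOR, KIT, IL3RA, CSF3R, IL6R, CSF2RB and CSF1R, with FLT3 and CSF2RA at 0, and the values of KIT and IL3RA overlapped, as did those of CSF2RB and CSF1R. After GNE-987 it was IL3RA, IL6R, CSF1R, EPOR, CSF2RA, FLT3, CSF3R and KIT, with CSF2RB at 0, and the values of CSF1R and EPOR overlapped, as did those of EPOR with CSF2RA and of CSF2RA with FLT3. In bulk RNA, fewer cells of a type and less RNA per cell cannot be told apart, so these are levels of the whole culture.

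Genes were tested with limma on log2(FPKM + 0.1) when their mean over the 4 libraries was at least 0.5 FPKM, and called at an unadjusted P value under 0.05 with a fold change over 2 or under 0.5. EPOR, IL3RA and IL6R passed the filter, and IL3RA and IL6R did so only through the GNE-987 group. Of these, 2 were called higher and 1 lower, where 33.6% of the 16668 tested genes were called higher and 24.9% lower. With no filter, 5 of the 9 genes were called higher and 2 lower, against 26.6% and 15.6% of 32895 genes. The values of the 2 groups overlapped for CSF2RB and for no other receptor, and they did not overlap for 68.3% of the 32895 genes above 0. The fitted changes of the 6 receptors under the filter depend on the pseudocount. With 1 FPKM in place of 0.1 the differences in mean log2 value were -0.40 for KIT, 0.42 for FLT3, 0.65 for CSF2RA and 0.96 for CSF1R, all under the fold threshold, and with 0.01 FPKM they were -4.28, 5.03, 5.83 and 6.14.

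**Figure D1:**
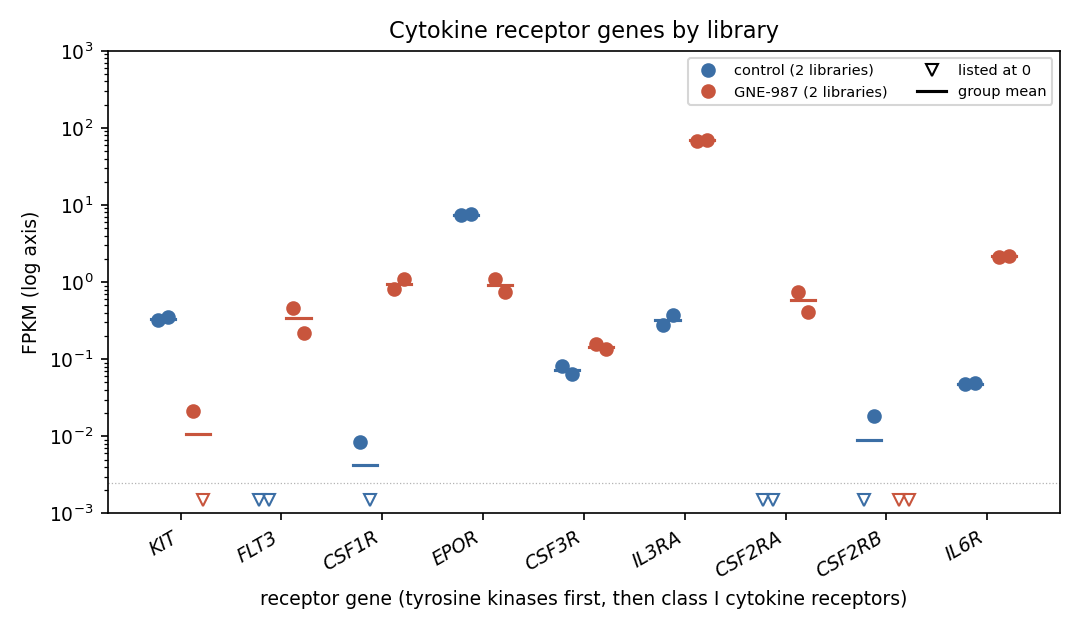
FPKM (log axis) of each receptor gene in each library, with control libraries in blue, GNE-987 libraries in red and a bar at each group mean, and open triangles for values listed at 0. EPOR and KIT lie higher in control, and IL3RA, IL6R, CSF1R, FLT3 and CSF2RA lie higher in GNE-987. CSF3R also lies higher in GNE-987 in the deposited FPKM, at low values in every library. The 2 points of a group lie close together for IL3RA, IL6R and the EPOR controls. They lie farther apart in GNE-987 for EPOR, FLT3 and CSF2RA.

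The start regions of EPOR and IL3RA are shown because these genes had the largest fall and the largest rise on the log2(FPKM + 0.1) scale among the 3 receptors that passed the filter. They run from 250 bases before to 50 bases after the transcription start of RefSeq on GRCh38.p14, 5′ to 3′ on the strand of the gene. Capitals mark the letters GATAA (or TTATC, the same letters on the opposite strand) and TTCNNNGAA, the palindrome bound by STAT proteins. GATAA is a form of the core bound by GATA factors, and other forms, such as GATAG, were not searched. The EPOR window is chr19:11384265-11384564 on the minus strand and the IL3RA window chrX:1336535-1336834 on the plus strand.
EPOR: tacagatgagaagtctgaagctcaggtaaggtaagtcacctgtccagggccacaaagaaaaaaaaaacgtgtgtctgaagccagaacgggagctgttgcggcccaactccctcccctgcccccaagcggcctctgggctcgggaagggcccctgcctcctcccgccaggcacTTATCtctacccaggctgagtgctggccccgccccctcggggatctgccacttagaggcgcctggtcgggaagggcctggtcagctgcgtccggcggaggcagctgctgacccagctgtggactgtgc
IL3RA: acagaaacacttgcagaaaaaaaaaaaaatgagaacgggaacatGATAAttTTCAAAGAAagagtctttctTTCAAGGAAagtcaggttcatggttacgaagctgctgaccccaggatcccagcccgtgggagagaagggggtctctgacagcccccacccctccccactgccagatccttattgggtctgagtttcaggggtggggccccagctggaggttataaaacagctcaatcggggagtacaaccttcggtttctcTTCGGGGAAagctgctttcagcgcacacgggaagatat
EPOR held 1 match of GATAA and 0 of TTCNNNGAA, and IL3RA held 1 and 3. None of these matches overlapped another. GATAA was found at least once in 22.7% of 35116 RefSeq windows of this length and TTCNNNGAA in 7.66%. At least 3 matches of TTCNNNGAA were found in 17 windows (0.0484%), of which 2 were the X and Y entries of IL3RA. RefSeq windows were at hand for 8 of the 9 receptors, and those of KIT, FLT3, CSF2RA, CSF3R, CSF1R and IL6R held 0 matches of either. A match describes the letters of the window and not a bound site.

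Of the tyrosine kinase receptors, KIT (ENSG00000157404, chr4:54657267-54740783 on the plus strand of GRCh38, 21 exons) marks stem and early progenitor cells and mast cells. KIT was at 0.32 and 0.349 FPKM in control (41 and 43 reads) and at 0.0215 and 0 FPKM after GNE-987 (1 and 0 reads). Both control libraries lay above both treated ones. The mean fell from 0.335 ± 0.0207 to 0.0108 ± 0.0152 FPKM (SD, n = 2 libraries). The control level was 32 times the treated one, with a 95% interval from read counting alone of 5.59 to 1278. KIT had a mean under the filter, and with no filter its log2 fold change was -1.98 (SE 0.269, 95% interval -2.77 to -1.18, limma Benjamini-Hochberg adjusted P = 0.0102).

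FLT3 (ENSG00000122025, chr13:28003274-28100592, minus strand, 24 exons) is the receptor of early lymphoid and myeloid progenitors that is often mutated in acute myeloid leukemia. FLT3 had no read in either control library and was at 0.460 and 0.218 FPKM after GNE-987, which is 16 and 8 reads. The level after GNE-987 was at least 10.4-fold higher than the level that 3 reads per control library would give. With no filter FLT3 was called higher (limma Benjamini-Hochberg adjusted P = 0.0227). Both treated libraries lay above both controls, on few reads.

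CSF1R (ENSG00000182578, chr5:150053291-150113372, minus strand, 21 exons) is the receptor that monocytes and macrophages depend on. It was at 0.00843 and 0 FPKM in control, 1 read in all, and at 0.813 and 1.10 FPKM after GNE-987, which is 35 and 50 reads. Both treated libraries were far above both control libraries. The ratio of the treated to the control level was 223.3, with a 95% counting interval of 39 to 8921, and the log2 fold change with no filter was 3.33 (SE 0.296, limma Benjamini-Hochberg adjusted P = 0.00385). Other annotated genes lie beside and inside CSF1R. HMGXB3 ends 149 bases from the 3′ side of CSF1R on the opposite strand. It fell, from 15.7 and 15.7 FPKM in control to 6.03 and 5.90 FPKM after GNE-987. RPL7P1, a processed ribosomal protein pseudogene, lies inside CSF1R on the opposite strand with 0 shared exon bases. Its listed value rose, from 109.3 and 121.8 FPKM in control to 427.8 and 471.3 FPKM after GNE-987. Reads of its parent gene may fit this copy, so the value does not show transcription inside CSF1R. PDGFRB, a kinase of the same receptor class, ends 467 bases before CSF1R and was at 0 and 0.0127 FPKM in control and 0.117 and 0.175 FPKM after GNE-987.

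The kinases PDGFRA, PDGFRB, KDR, FLT1 and FLT4 of the platelet-derived and vascular growth factor receptor classes were listed beside these, and 0 of the 5 passed the filter. PDGFRA was listed at 0 in all 4 libraries, and the summed level of the 5 was 0.0562 and 0.0889 FPKM in control and 0.565 and 0.537 FPKM after GNE-987.

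EPOR (ENSG00000187266, chr19:11377207-11384342, minus strand, 8 exons) was at 7.43 and 7.61 FPKM in control and at 1.09 and 0.736 FPKM after GNE-987. Both treated libraries lay well below both controls. The 2 control libraries lay close together, and the 2 treated ones farther apart for their level. The mean fell from 7.52 ± 0.121 to 0.912 ± 0.249 FPKM (SD, n = 2 libraries), so that control was 8.25 times the treated level. The log2 fold change was -2.93 (SE 0.206, 95% interval -3.52 to -2.35, limma Benjamini-Hochberg adjusted P = 0.000721). These values rest on 527 and 518 reads in control and 28 and 20 reads after GNE-987. The genes closest to EPOR were low. SWSAP1, whose 3′ end lies 256 bases from that of EPOR on the opposite strand, was at 1.34 and 1.18 FPKM in control and 0.639 and 0.269 FPKM after GNE-987, and RGL3, which shares 2 exon bases with EPOR, was at 0 in control and at 0.192 and 0.234 FPKM after GNE-987. ENSG00000267277, a long noncoding RNA gene 2.27 kb away on the same strand, was at 0.446 and 0.0663 FPKM in control and 0.526 and 1.33 FPKM after GNE-987, where its values spanned those of EPOR.

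The 3 protein-coding genes whose values over the 4 libraries were nearest to those of EPOR were COX10, TIMM22 and F2R, at Euclidean distances of 0.143, 0.215 and 0.215 on the log2(FPKM + 0.1) scale. COX10, which acts in heme A synthesis, was at 8 and 7.74 FPKM in control and 1.02 and 0.714 FPKM after GNE-987. F2R, the thrombin receptor, was at 6.79 and 7.46 FPKM in control and 1.24 and 0.725 FPKM after GNE-987. Nearness over 4 libraries reflects mainly the level in each of the 2 groups.

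CSF3R (ENSG00000119535, chr1:36466043-36483278, minus strand, 17 exons) was low in every library. It was at 0.0824 and 0.0644 FPKM in control and at 0.156 and 0.134 FPKM after GNE-987, which is 16 and 12 against 11 and 10 reads. The treated values lay above the control values in FPKM although the treated libraries held fewer CSF3R reads. The ratio of means was 1.98 in the deposited scaling and 1.13 per total of recovered reads. With no filter the log2 fold change was 0.50 with a 95% interval of -0.24 to 1.24 (limma, unadjusted P = 0.127), which does not pass the threshold, and its sign turned when libraries were scaled to GAPDH (-0.44).

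IL3RA (ENSG00000185291, chrX:1336616-1382689, plus strand, 12 exons of which exons 2 to 12 are coding) had the largest fitted log2 fold change of the 9 receptors on the log2(FPKM + 0.1) scale, although the ratio of CSF1R, which rests on 1 control read, was of the same size. It codes for CD123, the alpha chain of the interleukin 3 receptor, known for its high level on leukemic stem cells. IL3RA was at 0.279 and 0.370 FPKM in control (11 and 14 reads) and at 67.8 and 70.2 FPKM after GNE-987 (969 and 1060 reads). The treated libraries lay close together and far above both controls. The mean rose from 0.325 ± 0.0641 to 69 ± 1.74 FPKM (SD, n = 2 libraries), a ratio of 212.5, or 122.6 per total of recovered reads. The log2 fold change was 7.35 (SE 0.132, 95% interval 6.98 to 7.73, limma Benjamini-Hochberg adjusted P = 0.000105).

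IL3RA and CSF2RA lie in the pseudoautosomal region that the X and Y chromosomes share, and the table lists them under their X copy. How reads that match both copies were counted is not given in the sources used here, so the levels of both genes are uncertain in that respect. The next gene to IL3RA is SLC25A6, an abundant mitochondrial ADP/ATP carrier gene on the opposite strand, whose 3′ end lies 3.46 kb from the 3′ end of IL3RA. SLC25A6 was at 189.4 and 176.6 FPKM in control and at 461.7 and 448.4 FPKM after GNE-987 (log2 fold change 1.31, SE 0.0525, limma Benjamini-Hochberg adjusted P = 0.000245), a direction that turned with scaling to GAPDH (-0.54) or quantile normalization (-0.37). IL3RA was 0.148% and 0.210% of the SLC25A6 level in control and 14.7% and 15.7% after GNE-987. The body of IL3RA runs from 3.46 to 49.5 kb past the end of SLC25A6 in its direction of transcription, and CSF2RA from 75.8 to 117.4 kb past it. Whether transcripts that run past the end of SLC25A6 add to the IL3RA value was not tested, since the table holds 1 value per gene and no strand.

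**Figure D2:**
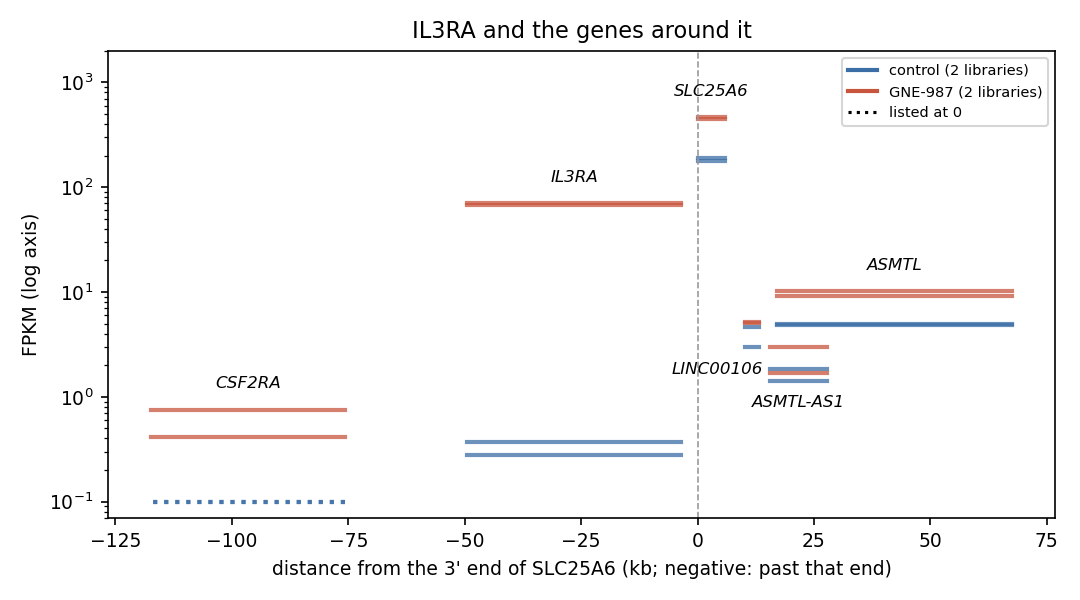
FPKM (log axis) of IL3RA and the genes around it, each drawn as a line over its distance in kb from the 3′ end of SLC25A6 (negative values lie past that end), with 1 line per control library in blue and 1 per GNE-987 library in red. IL3RA moved from 0.279 and 0.370 to 67.8 and 70.2 FPKM, while CSF2RA, which lies farther out, stayed under 1 FPKM and was listed at 0 in control (dotted).

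The genes nearest to IL3RA over the 4 libraries were RASL11A, PTPN6 and H2BC26, at distances of 0.8, 0.91 and 0.96. RASL11A, a small GTPase gene, was at 0.401 and 0.585 FPKM in control and 56.7 and 55.3 FPKM after GNE-987. PTPN6, which codes for the phosphatase SHP-1 that restrains cytokine receptor signals, was at 0.156 and 0.199 FPKM in control and 60.4 and 60.1 FPKM after GNE-987. H2BC26, a histone gene, was at 0.423 and 0.555 FPKM in control and 94.9 and 99.0 FPKM after GNE-987.

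CSF2RA (ENSG00000198223, chrX:1268800-1310381, plus strand, 13 exons), the alpha chain for GM-CSF, had no read in either control library. After GNE-987 it was at 0.75 and 0.414 FPKM, which is 24 and 14 reads, at least 16.4-fold higher than 3 reads per control library would give. With no filter it was called higher (limma Benjamini-Hochberg adjusted P = 0.0104). CSF2RB (ENSG00000100368, chr22:36913628-36940439, plus strand, 14 exons), the beta chain that both alpha chains need, was at 0 and 0.0181 FPKM in control and 0 in both treated libraries, 2 reads in all. A change of CSF2RB was not detectable at this depth, since 3 reads correspond to 0.0719 and 0.0681 FPKM in the treated libraries. The alpha chain IL3RA was thus measured at 67.8 and 70.2 FPKM in libraries in which the beta chain had no read.

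IL6R (ENSG00000160712, chr1:154405193-154469450, plus strand, 10 exons) was at 0.0471 and 0.0490 FPKM in control and at 2.13 and 2.16 FPKM after GNE-987. Each group was tight and the groups were far apart. The mean rose from 0.0481 ± 0.00136 to 2.15 ± 0.0198 FPKM (SD, n = 2 libraries), a ratio of 44.6, on 7 and 7 reads in control and 115 and 123 after GNE-987. The log2 fold change was 3.92 (SE 0.235, 95% interval 3.26 to 4.59, limma Benjamini-Hochberg adjusted P = 0.000513). IL6R-AS1, an antisense RNA gene that overlaps IL6R with 0 shared exon bases, was at 0.0742 and 0 FPKM in control and 0.885 and 0.258 FPKM after GNE-987. SHE, which ends 322 bases from IL6R on the opposite strand, was at 0 in control and at 0.198 and 0.228 FPKM after GNE-987. The signal chain IL6ST, which IL6R needs, was at 2.80 and 2.78 FPKM in control and 6.28 and 6.18 FPKM after GNE-987. Its log2 fold change was 1.13 (SE 0.0751, limma Benjamini-Hochberg adjusted P = 0.000639) in the deposited scaling, but -0.68 with scaling to GAPDH and 0.35 with scaling to the total of reads.

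**Figure D3:**
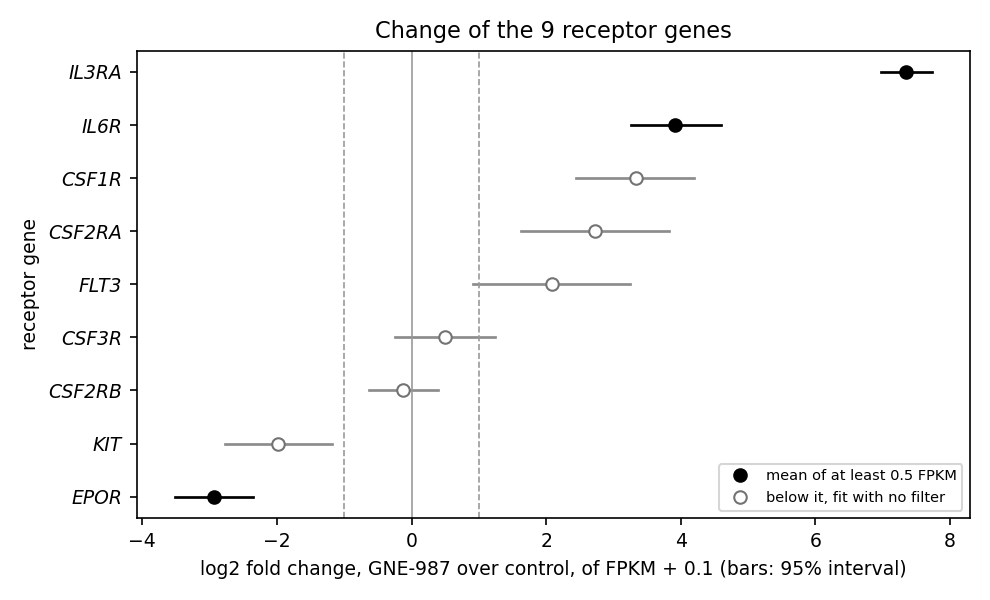
Log2 fold change between GNE-987 and control for each receptor gene on the log2(FPKM + 0.1) scale, with 95% intervals from limma, filled points for the 3 genes that passed the filter on low values and open points for the 6 tested only with no filter, and dashed lines at a log2 fold change of 1 either way. IL3RA stands at 7.35, IL6R at 3.92 and EPOR at -2.93, and the intervals of CSF2RB and CSF3R include 0.

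The ligands of these receptors were mostly low, and 4 of 10 passed the filter. Of these 4, 2 were called higher and 0 lower, where 33.6% of all tested genes were called higher and 24.9% lower. Both called genes, CSF3 and EPO, passed the filter only through the GNE-987 group, so this count says little about the list. CSF3, the gene of G-CSF, was at 0.0391 and 0.0204 FPKM in control and at 5.60 and 5.26 FPKM after GNE-987 (log2 fold change 5.42, limma Benjamini-Hochberg adjusted P = 0.00022). EPO was listed at 0 in control and was at 0.899 and 1.11 FPKM after GNE-987, on 10 and 13 reads, at least 10-fold higher than 3 reads per control library would give. In the treated libraries the values of EPO and of EPOR overlapped. CSF1 was at 1.18 and 1.23 FPKM in control and 0.574 and 0.711 FPKM after GNE-987 and did not pass the fold threshold (log2 fold change -0.82). IL6 was under the filter, at 0.567 and 0.524 FPKM in control and 0.173 and 0.219 FPKM after GNE-987. KITLG, the stem cell factor gene, was at 0 in control and at 0.0771 and 0.0365 FPKM after GNE-987. FLT3LG reached at most 0.279 FPKM, IL3 at most 0.324 FPKM, CSF2 at most 0.230 FPKM and IL34 at most 0.0202 FPKM in any library.

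Of 27 other cytokine receptor chains, 13 passed the filter. Of these, 3 were called higher, 5 lower and 5 did not pass, with a median log2 fold change of 0.35 against 0.17 over all tested genes, of which 33.6% were called higher and 24.9% lower. Of these calls, 1 higher and 1 lower gene passed the filter only through the group in which they were high. IL9R was at 0.763 and 0.614 FPKM in control and rose to 5.40 and 4.62 FPKM. IL9R also lies in a pseudoautosomal region, so its level is uncertain in the same respect as that of IL3RA. Among those that fell, IL15RA went from 2.34 and 2.30 to 0.165 and 0.405 FPKM and IL27RA from 6.23 and 7.49 to 1.74 and 2.30 FPKM.

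Of 25 genes that carry the signal inside the cell, 21 passed the filter. Of these, 4 were called higher, 8 lower and 9 did not pass, and the median log2 fold change was -0.28, where 33.6% of all tested genes were called higher and 24.9% lower. Of these calls, 1 higher gene (PTPN6) and 1 lower gene (GAB1) passed the filter only through the group in which they were high. STAT5A, a main signal transducer of EPOR and of the interleukin 3 receptor, was at 113.8 and 115.3 FPKM in control and 17.1 and 16.6 FPKM after GNE-987 (log2 fold change -2.76, SE 0.0426, limma Benjamini-Hochberg adjusted P = 9.61e-05). Its close relative STAT5B was at 35.8 and 36.7 FPKM in control and 11.4 and 10.9 FPKM after GNE-987, and reads that fit both genes may have been split between them. JAK2, the kinase that EPOR and CSF2RB bind, went from 4.65 and 4.66 to 1.96 and 2.04 FPKM (log2 fold change -1.18). The catalytic PI3-kinase genes PIK3CB and PIK3CD fell by 2.18 and 1.97 on the log2 scale. PTPN6 rose by 7.77 on the same scale, with the values given beside IL3RA. STAT3, PIK3R1 and GRB2 made up the rest of the 4 genes called higher. STAT3 was at 21.1 and 24.7 FPKM in control and 83.5 and 81.8 FPKM after GNE-987 (log2 fold change 1.85). PIK3R1 and GRB2 rose by 1.77 and 1.35 on the log2 scale. With scaling to GAPDH, 1 gene of this list was called higher and 17 lower.

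Among 12 genes that cytokine signals are known to induce, 11 passed the filter. Of these, 4 were called higher and 4 lower, and the median log2 fold change was -0.28, beside the same 33.6% and 24.9% over all tested genes. The feedback inhibitors SOCS3, SOCS1 and CISH rose by 2.90, 2.63 and 2.10 on the log2 scale, while SOCS2 of the same family fell (log2 fold change -1.19), from 18.6 and 18.1 to 8.10 and 7.93 FPKM. SOCS3 was at 7.97 and 7.77 FPKM in control and 60.4 and 58.8 FPKM after GNE-987, and CISH at 19.0 and 16.1 FPKM and then at 73.9 and 76.9 FPKM. ID1 went from 34.3 and 28.3 to 13.0 and 11.7 FPKM. Both proteases that shed receptors from the cell surface, ADAM17 and ADAM10, did not pass the fold threshold, at log2 fold changes of -0.74 and 0.64.

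Of 11 transcription factor genes known to act on blood receptor genes, 9 passed the filter. Of these, 1 was called higher and 5 lower, and the median log2 fold change was -1.36. The background was again 33.6% and 24.9%. The gene called higher, CEBPE, passed the filter only through the GNE-987 group. GATA1, known to act at the EPOR gene, was at 123.8 and 121.8 FPKM in control and 15.1 and 12.5 FPKM after GNE-987 (log2 fold change -3.15, SE 0.103). MYB, which maintains progenitors, went from 27.9 and 30.1 to 1.11 and 1.79 FPKM (log2 fold change -4.26), and LMO2, a partner of GATA1 complexes, from 14.2 and 14.8 to 3.19 and 2.44 FPKM. CEBPE, a factor of granulocyte precursors, rose from 0.0559 and 0.116 to 1.46 and 2.70 FPKM. SPI1, a regulator of myeloid receptor genes such as CSF1R and CSF3R, was at 7.52 and 5.68 FPKM in control and 4.80 and 3.23 FPKM after GNE-987 and was not called.

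**Figure D4:**
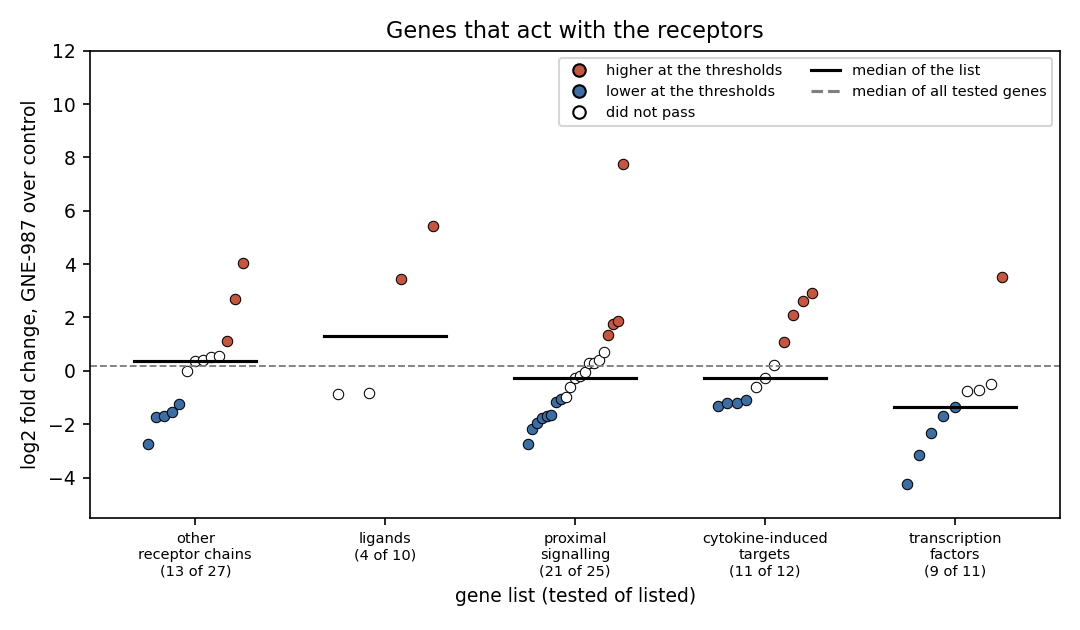
Log2 fold change between GNE-987 and control for the tested genes of 5 lists around the receptors, with red points called higher, blue points called lower, open points that did not pass, a bar at each list's median and a dashed line at the median of all tested genes (0.17). Each list but the ligands held genes called in both directions, and the transcription factors had the lowest median (-1.36).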

How the data were processed

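RNA of 4 libraries was measured, and the groups and replicate numbers come from the labels, with dose and time from the study's text. The authors mapped reads with HISAT2 (2.0.5 and genome hg38 per the submitters' processing notes), tested with DESeq2 and deposited FPKM values per Ensembl gene. The counting program and annotation are not given in the sources used here. No column was left unused. The table holds no counts, so limma 3.58.1 in R 4.3.3 was run on log2(FPKM + 0.1), with an intensity trend and no replicate block, for every gene averaging 0.5 FPKM or more over the libraries. Fold changes on this scale understate the change of low genes. P values were adjusted by Benjamini-Hochberg over every gene tested.

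Of 58735 identifiers, 58207 (99.1%) were in GENCODE release 44 on GRCh38, which gave names and positions. Whole reads were recovered from the FPKM steps within a tolerance of 0.01 of a read. At GENCODE exon lengths 18841 of 32895 genes (57.3%) came out whole in every library and 14054 did so at a searched length. 1 read was worth 2.75 and 2.61 times as much in the GNE-987 libraries as in control replicate 1. Counting intervals are exact binomial 95% intervals and, like the floor of 3 reads per library, cover counting error only.

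The receptors and all lists were chosen with earlier results of these data known, so a list's counts are no independent evidence. Named by rule were all 9 receptors, up to 4 genes per list with the largest absolute log2 fold change at P under 0.05, direct partners of the receptors, genes within 10 kb, and the 3 nearest genes of EPOR and IL3RA. A gene that this rule names is not reported here. STAT5B, STAT3, PIK3R1, GRB2, SOCS2, SPI1, GAB1, GAPDH, the marker genes and the related kinases were named after their values were seen. Alternatives were other pseudocounts, filters, scalings and thresholds, limma-voom on recovered reads, a replicate block and leaving out each library. The steps were tested on simulated data.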

Additional observations from a re-analysis of the deposited data

How the results depend on the processing

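EPOR, IL3RA and IL6R kept their direction and stayed past the thresholds in every alternative tried, with log2 fold changes of -4.65 to -2.16 for EPOR, 5.68 to 7.70 for IL3RA and 1.59 to 5.21 for IL6R, and of -3.19 to -2.68, 7.2 to 7.51 and 3.91 to 3.93 when each library was left out in turn. With no filter more genes could be tested, and 5 receptors were higher and 2 lower, as were 8757 genes higher in all, 5 other receptor chains, 4 ligands and 2 related receptor tyrosine kinases higher and 1 ligand lower. With a mean of at least 1 FPKM, 1 ligand was higher. Scaling moved the median log2 fold change of all tested genes from 0.174 to -1.594 with GAPDH, -0.243 with quantile normalization, -0.586 with the total of recovered reads and -0.588 with limma-voom. GAPDH itself was at 398.1 and 432.2 FPKM in control and 1501 and 1499 FPKM after GNE-987. Scaled to GAPDH, 3031 genes were higher and 9738 lower, with 1 other receptor chain higher and 10 lower, 2 ligands lower, 1 signalling gene higher and 17 lower, 1 cytokine-induced gene higher and 7 lower, and 8 transcription factors lower. CSF3R (-0.44), IL6ST (-0.68) and SLC25A6 (-0.54) then changed sign, as did SLC25A6 with quantile normalization (-0.37). With the total of recovered reads 6707 genes, 2 ligands and 8 transcription factors were lower and 2 signalling genes higher. With limma-voom 6820 genes, 2 ligands and 8 transcription factors were lower, and with quantile normalization 2 ligands were. The cause of the difference between scalings was not tested. CISH and SOCS1 were no longer called with GAPDH scaling (log2 fold changes 0.25 and 0.80), nor IL9R (0.96) and RPL7P1 (0.11, and 0.58 with quantile normalization). SLC25A6 was not called with total reads or limma-voom (0.52 in both), nor IL6ST (0.35 and 0.36), and JAK2 (-0.92), IL6ST (0.93) and SWSAP1 (-0.65) were not called with a pseudocount of 1 FPKM or in the test against a fold change of 2. CSF1 was called lower with GAPDH (-2.46), quantile normalization (-2.40), total reads (-1.53) and limma-voom (-1.69). SWSAP1 lost its call without control replicate 1 (-1.29), control replicate 2 (-1.46) or GNE-987 replicate 2 (-0.88). Same-numbered libraries did not deviate together over genes (correlation 0.00537), which cannot tell whether they shared a culture or a day. With the replicate block 5667 genes were higher and 4186 lower in place of 5602 and 4148, with 2 receptors higher and 1 lower. The GNE-987 libraries are the shallower pair, and the values of CSF2RB, CSF3R and KIT rest on few reads there.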
